A study of Homo sapiens with 4 samples.

Results

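The genes described are the matrix metalloproteases (MMP), the ADAM and ADAMTS proteases and their tissue inhibitors (TIMP), chosen by symbol alone: MMP, ADAM or ADAMTS followed by a number, and TIMP1 to TIMP4. The rule found 65 genes among 23786 features of the arrays, of which 22458 carried a gene symbol. They comprised 22 MMP, 21 ADAM, 18 ADAMTS and 4 TIMP genes. Their expression was measured in U87, an established human glioblastoma line, on 4 Affymetrix whole-transcript arrays, 1 per condition. The acute pair was 2 µM crizotinib for 24 hours against cells labelled vehicle, described as kept without drug for the same time. Crizotinib is a kinase inhibitor whose targets include MET and ALK. The chronic pair was a culture labelled crizotinib-resistant against one labelled crizotinib-sensitive. The treatment text gives both 21-day arms 1 name, so the resistant array was read as cells kept in 1 µM crizotinib and the sensitive array as the matching culture without drug. The chronic differences are resistant minus sensitive by label. If that reading were wrong they would stay as given, but as differences of drug from no drug their sign would be reversed. All cultures grew in medium with serum, and their RNA was extracted together. The labels do not say whether the resistant culture is a clone or a pool.

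MMPs are zinc endopeptidases that cleave collagens, laminins, proteoglycans and other matrix proteins, and most are made as inactive proenzymes. TIMPs are secreted proteins that bind the active site of MMPs, and TIMP3 also inhibits several ADAM and ADAMTS enzymes. ADAMs are mostly membrane-anchored and release the outer parts of growth factors, cytokines and adhesion molecules, whereas ADAMTS enzymes are secreted, carry thrombospondin repeats and process procollagens and large proteoglycans. In gliomas these enzymes are known for their part in the invasion of brain matrix.

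Values are log2 expression as the authors deposited them, and a difference of 1 is 2-fold. A gene's own values can be compared across arrays, but the values of different genes are not measures of relative abundance. Array medians lay between 4.92 and 4.98. With 1 array per condition no difference has a replicate check, so genes were described by size: called means at least 2-fold apart with a value of 4.96 or more, the median over the whole table, in one array or both. As a yardstick, differences between the arrays without drug (sensitive minus vehicle) were taken over the 12397 features that reached 4.96 in either of them. The central 95% ran from -0.80 to 0.85, a spread that holds culture, time and array together. Of the 65 members, 34 reached 4.96 on at least 1 array and 31 lay below it on all 4. The glial markers GFAP, S100B, AQP4, OLIG2 and SOX2 were below 4.96 on every array. NES, from the same list, was above 4.96 on every array, and its lowest value was 5.07 in the resistant array. Vimentin (VIM) was at 12.00 to 12.26 and CD44 at 10.66 to 11.26. Of the 10 glial and glioma markers, 5 reached 4.96 in the acute pair and 4 in the chronic pair, and only these could be called. Called higher were 2 after 24 hours and 1 in the chronic pair, beside 2.88% and 3.97% of all features that reached 4.96. CHI3L1, a secreted glycoprotein of mesenchymal gliomas, was at 10.05 with 24-hour crizotinib and 7.91 with vehicle, and at 10.56 in the resistant and 7.38 in the sensitive array. FABP7, a fatty acid carrier of radial glia, was 2.05 higher with 24-hour crizotinib than with vehicle and differed by -0.28 in the chronic pair. In a bulk culture a smaller share of expressing cells and less RNA per cell cannot be told apart.

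After 21 days most of the members called were MMPs: 6 MMP genes, 1 ADAMTS gene and 2 TIMP genes were called higher in the resistant array, and 2 ADAM genes were called lower. Over all features that passed the level filter, 3.97% were called higher and 4.08% lower, against 9 and 2 of the 65 members, 34 of which passed. Of the 9, MMP7, MMP9 and MMP12 passed through the resistant array alone and so had to differ. The median chronic difference was 0.35 over the MMPs, 0.01 over the ADAMs, 0.06 over the ADAMTS genes and 0.67 over the TIMPs, beside 0.01 over all features. After 24 hours no member was called higher and 1, ADAMTS1, was called lower, where 2.88% of features were higher and 2.13% lower.

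**Figure D1:**
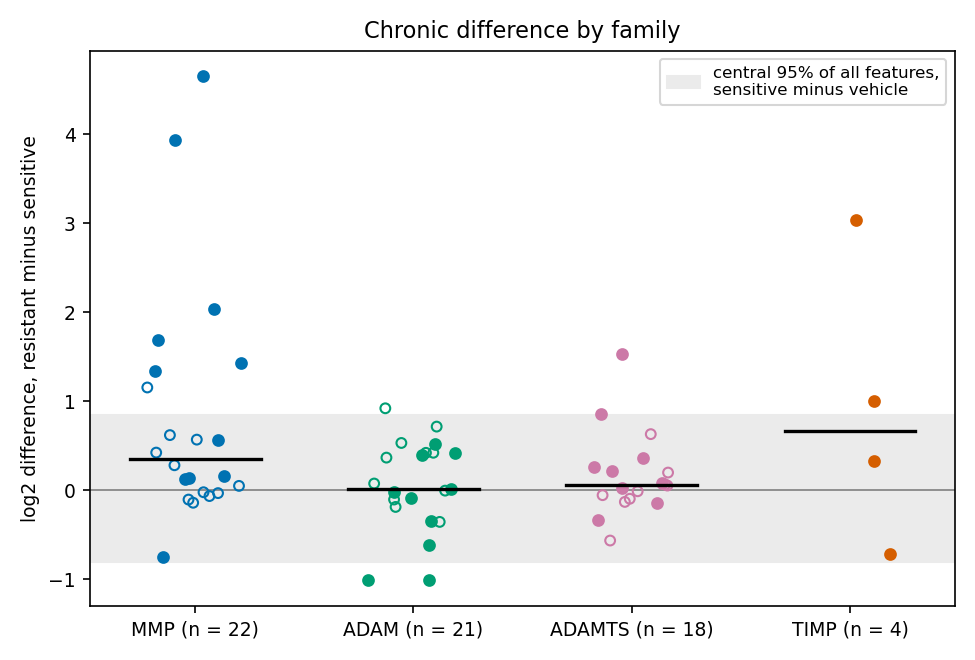
Log2 difference of resistant minus sensitive (vertical axis) for every member, by family. Each point is a gene, filled where at least 1 array reached 4.96 and open otherwise. Bars are family medians (0.35, 0.01, 0.06 and 0.67). The grey band is the central 95% of sensitive minus vehicle over all features that reached 4.96 in either of these arrays. The points far above the band are mostly MMP genes.

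MMP12, the macrophage metalloelastase, which degrades elastin, had the largest chronic difference among the members. Its level was 7.95 in the resistant array and 3.29 in the sensitive array, against 3.71 with 24-hour crizotinib and 3.48 with vehicle. The resistant array was therefore alone in being high, at a difference of 4.66 (25.2-fold), the 3rd highest of 12450 features. MMP7, matrilysin, a small MMP without a hemopexin domain that cleaves matrix and cell-surface proteins, followed at 7.62 in the resistant array and 3.68 in the sensitive array, with 3.48 under 24-hour crizotinib and 3.00 under vehicle. That is a difference of 3.94 (15.3-fold), the 5th highest, and again no other array came near.

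The stromelysin MMP3, which cleaves proteoglycans and activates other proMMPs, was at 11.81 in the resistant array and 9.77 in the sensitive array, and at 9.15 with 24-hour crizotinib and 9.38 with vehicle. Unlike MMP7 and MMP12 it was well above the median of all values in every array, and the chronic difference was 2.03 (4.09-fold). MMP19, a protease of basement membrane proteins, was at 7.88 in the resistant array and 6.19 in the sensitive array, beside 6.40 and 6.20 in the 24-hour crizotinib and vehicle arrays. The other arrays lay between 6.19 and 6.40, and the resistant array stood 1.69 above its control. The gelatinase MMP9, which cleaves denatured collagen and type IV collagen, was at 5.68 in the resistant array and 4.25 in the sensitive array, with 4.29 and 4.36 in the 24-hour crizotinib and vehicle arrays. Only the resistant array crossed 4.96, and the difference was 1.43. MMP2, the other gelatinase, was at 11.60 in the resistant and 11.48 in the sensitive array, and at 11.79 and 11.62 in the 24-hour crizotinib and vehicle arrays. These values span 0.31, with no array apart.

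MMP1, the interstitial collagenase, differed more between the times than between the arrays of a pair. It read 10.57 in the resistant array and 9.23 in the sensitive array, but 3.69 with 24-hour crizotinib and 4.21 with vehicle. Both 21-day arrays were high and both 24-hour arrays low. The chronic difference was 1.34 (2.54-fold), whereas the sensitive array exceeded the vehicle array by 5.02 (32.4-fold), the highest difference between the drug-free arrays of 12397 features. In that comparison 1.68% of features were called higher and 1.38% lower, and among members MMP1, ADAMTS1 and ADAMTS18 were higher and TIMP3 was lower. How far culture time, passage or array set this difference cannot be told apart.

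**Figure D2:**
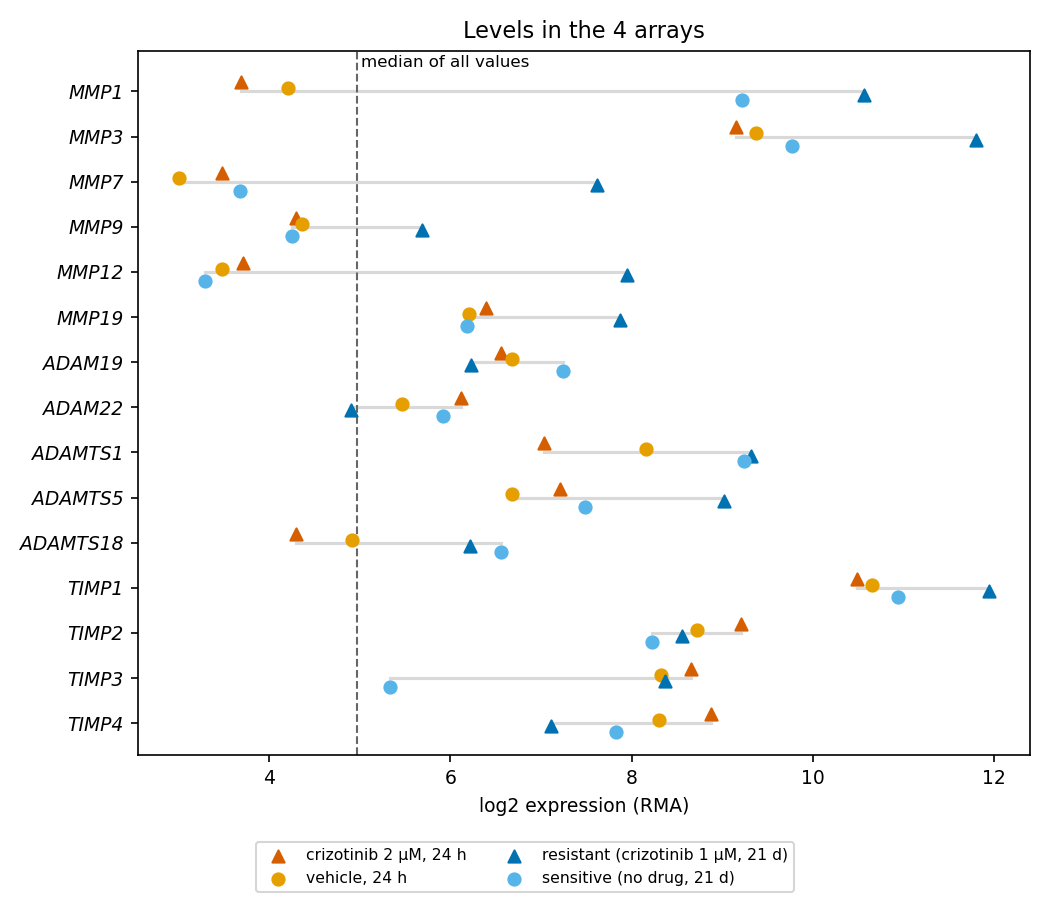
Log2 expression (horizontal axis) in each of the 4 arrays for the members called in the acute, chronic or drug-free comparison and for the 4 TIMPs; triangles are cultures with crizotinib and circles cultures without. MMP7, MMP9, MMP12 and MMP19 are high in the resistant array alone, MMP1 is high in both 21-day arrays, and TIMP3 is low in the sensitive array alone.

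MMP1, MMP3, MMP7 and MMP12 belong to a cluster of 9 neighbouring MMP genes at 11q22, in the order MMP7, MMP20, MMP27, MMP8, MMP10, MMP1, MMP3, MMP12 and MMP13 in the RefSeq annotation of GRCh38.p14. In 9 of the 9 the resistant array held the highest of the 4 values, and 9 of 9 chronic differences were above 0, with a median of 1.15. Of the 13 MMP genes elsewhere, 7 were above 0. Over all features 29.0% had their highest value in the resistant array, as had 27 of the 65 members. The remaining 5 cluster genes lay below 4.96 on every array. MMP8, the neutrophil collagenase, was the furthest apart of them, at 4.11 in the resistant array and 2.96 in the sensitive array, with 2.92 and 2.90 in the 24-hour crizotinib and vehicle arrays. MMP10, another stromelysin, was at 3.26 in the resistant and 2.65 in the sensitive array, and at 2.63 and 2.43 in the 24-hour crizotinib and vehicle arrays. MMP20, the enamel protease, was at 4.31 in the resistant and 3.75 in the sensitive array, and at 3.79 and 3.49 in the 24-hour crizotinib and vehicle arrays. These differences, 0.62 and 0.57, lie within the spread between the arrays without drug. MMP13, a collagenase of cartilage and bone, was at 2.66 in the resistant and 2.24 in the sensitive array, and at 2.13 and 2.42 in the 24-hour crizotinib and vehicle arrays. MMP27 was at 2.18 in the resistant and 1.90 in the sensitive array, and at 2.05 and 2.00 in the 24-hour crizotinib and vehicle arrays. Both differences lay within that spread as well. MMP10, MMP20, MMP13 and MMP27 lie below the level of the features that set the spread. Of the genes next to the cluster, TMEM123 on the MMP7 side differed by -0.10 and DCUN1D5 on the MMP13 side by -0.62 in the chronic pair. Beyond TMEM123, BIRC2 and YAP1 also had their highest value in the resistant array, but differed from the sensitive array by only 0.28 and 0.33.

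**Figure D3:**
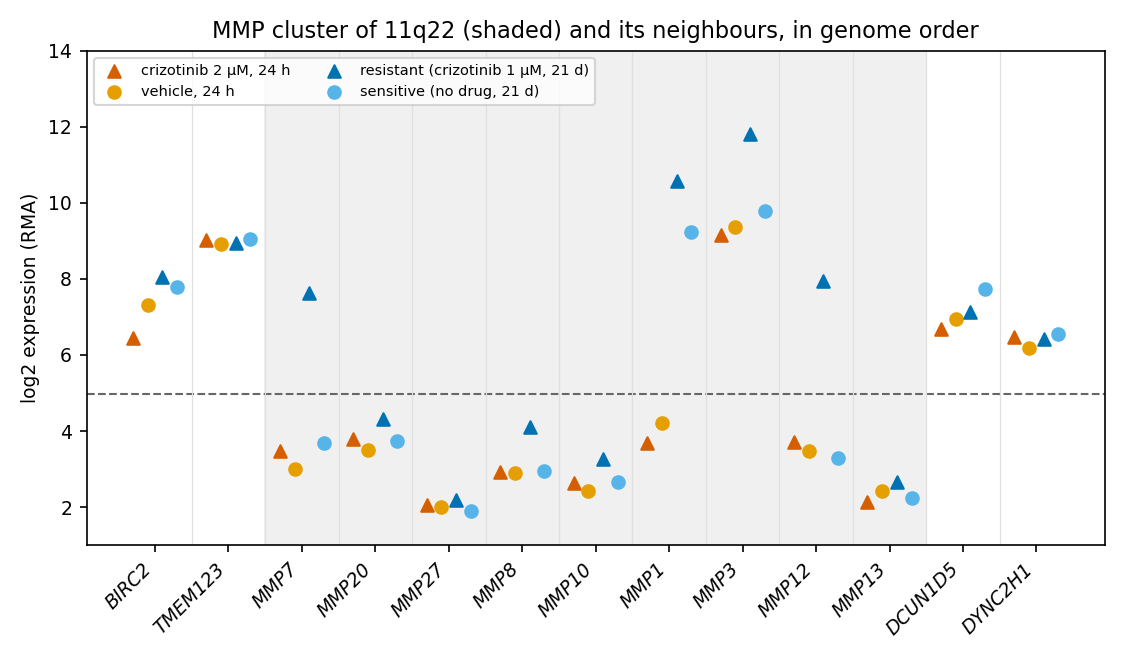
Log2 expression (vertical axis) of the 9 MMP genes of the 11q22 cluster (shaded) and of neighbouring genes, in genome order and not to scale, with 4 points per gene for the arrays; the dashed line is 4.96. MMP7, MMP1, MMP3 and MMP12 lie above the line in the resistant array, and the 4 neighbours drawn differ between resistant and sensitive by -0.62 to 0.28.

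Promoter sequences from RefSeq (GRCh38.p14) were found for 37 of the 65 members, 5 of them in the cluster. Shown are the 100 bases before the start of MMP7, which was called, of its cluster neighbours MMP8 and MMP10, which stayed below 4.96, and of the called inhibitors TIMP1 and TIMP3, each written in the direction of its gene. Capitals mark the AP-1 motif TGAGTCA, searched on both strands, and the TATA box letters TATAAA, searched on the gene's strand.

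MMP7, chr11:102530748-102530847 (minus strand): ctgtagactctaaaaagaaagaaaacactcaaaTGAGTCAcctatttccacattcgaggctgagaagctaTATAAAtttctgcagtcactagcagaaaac

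MMP8, chr11:102724955-102725054 (minus strand): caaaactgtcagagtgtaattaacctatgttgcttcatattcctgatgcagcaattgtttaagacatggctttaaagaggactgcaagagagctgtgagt

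MMP10, chr11:102780629-102780728 (minus strand): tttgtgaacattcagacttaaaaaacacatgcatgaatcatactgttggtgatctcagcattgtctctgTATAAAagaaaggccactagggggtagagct

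TIMP1, chrX:47582336-47582435 (plus strand): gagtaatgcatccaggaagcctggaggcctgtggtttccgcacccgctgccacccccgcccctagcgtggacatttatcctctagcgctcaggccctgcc

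TIMP3, chr22:32801605-32801704 (plus strand): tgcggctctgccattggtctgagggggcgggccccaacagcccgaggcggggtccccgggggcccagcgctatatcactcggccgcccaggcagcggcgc

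Among called members, MMP1, MMP3, MMP9, MMP12, MMP19, ADAMTS1 and ADAMTS5 had no promoter entry and were not searched. In the 250 bases before the start, MMP7 was the 1 promoter of the 38 found for members (ADAMTS10 has a pair) with the AP-1 letters, which begin at position -67. Whether the promoters not searched hold these letters is not known from this search. The same letters occur in 4.20% of 35116 RefSeq promoters in a window of that length. TATAAA begins at -30 in MMP7, at -31 in MMP10 and, outside the stretch shown, at -110 in MMP8. It was found in 6 of the 38 member promoters and in 6.80% of all. TIMP1 and TIMP3 had neither. These matches describe letters only and say nothing of binding.

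The TIMPs differed among themselves in both comparisons. TIMP1, a broad MMP inhibitor, was at 11.95 in the resistant array and 10.95 in the sensitive array, with 10.49 and 10.66 in the 24-hour crizotinib and vehicle arrays. The resistant array was the highest, and its difference of 1.00 lies on the 2-fold line, just inside it. TIMP3, which binds to matrix, was at 8.37 in the resistant array and 5.33 in the sensitive array, a difference of 3.04, but at 8.65 and 8.33 in the 24-hour crizotinib and vehicle arrays. It was the sensitive array that stood apart, by -2.99 from vehicle, and the resistant array differed from vehicle by 0.04. TIMP2, which takes part in the activation of proMMP2 by MMP14, was at 8.56 in the resistant and 8.23 in the sensitive array, and at 9.20 and 8.72 in the 24-hour crizotinib and vehicle arrays. TIMP4 was at 7.11 in the resistant and 7.83 in the sensitive array, and at 8.88 and 8.30 in the 24-hour crizotinib and vehicle arrays. TIMP2, TIMP3 and TIMP4 thus had their highest value under 24-hour crizotinib, by 0.48, 0.33 and 0.58 over vehicle, and TIMP1 differed by -0.17 there. None of these acute differences reached 2-fold.

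Set against the vehicle array in place of the sensitive array, 8 of the 9 genes called higher were called again, the exception being TIMP3, and 0 of the 2 called lower. The resistant array enters both comparisons, so repeated calls are no independent support. Of all 494 features called higher against the sensitive array, 66.6% were called again, and of the 508 called lower, 72.6%. MMP12 stood 4.47 above vehicle, MMP7 4.62, MMP3 2.43, MMP19 1.68, MMP9 1.32, TIMP1 1.29 and MMP1 6.36. ADAMTS1 and ADAMTS18 were also called higher on that basis, at 1.16 and 1.31, and TIMP4 lower, at -1.20. Against the mean of both drug-free arrays the same 9 genes were higher and no member was lower.

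**Figure D4:**
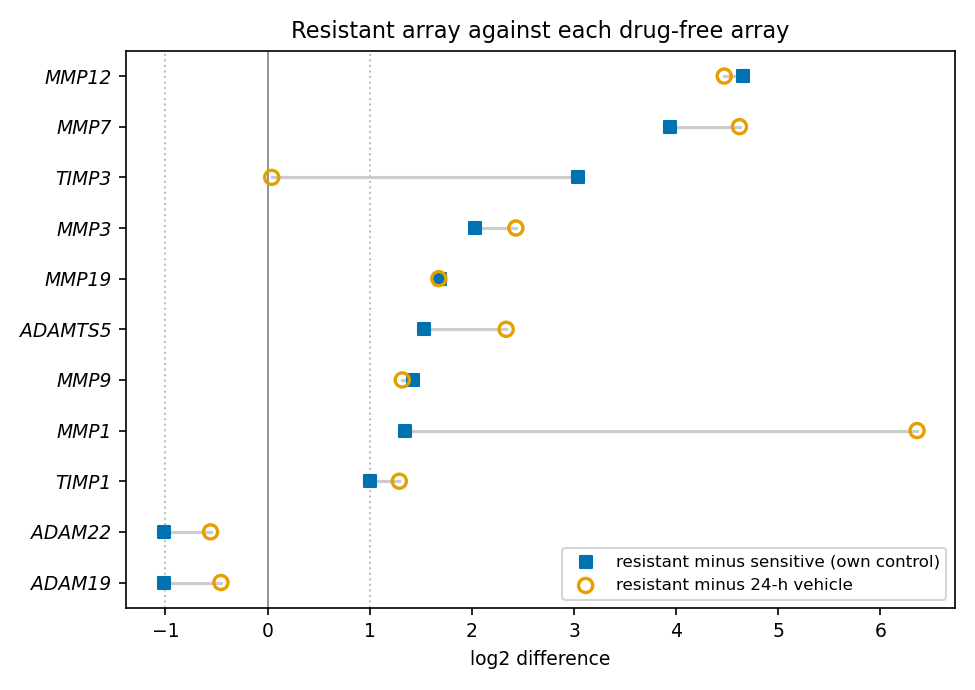
Log2 difference (horizontal axis) of the resistant array from the sensitive array (filled squares) and from the 24-hour vehicle array (open circles) for the 11 members called in the chronic pair; dotted lines mark 2-fold. The symbols lie close for MMP12, MMP19, MMP9 and TIMP1, while TIMP3 moves to 0.04 and MMP1 to 6.36 against vehicle.

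Among the 18 ADAMTS genes, 9 passed the level filter in the chronic pair and 7 in the acute pair. Called were 1 higher in the chronic pair and 1 lower in the acute pair, beside 3.97% and 2.13% of all features that passed. ADAMTS5, an aggrecanase that cleaves proteoglycans of the aggrecan family, was at 9.02 in the resistant array and 7.48 in the sensitive array, with 7.21 and 6.68 in the 24-hour crizotinib and vehicle arrays. The chronic difference was 1.54. The acute difference of 0.53 lies within the spread between the arrays without drug and is -0.27 when the sensitive array is the control. ADAMTS1, which cleaves versican and aggrecan, was at 7.03 with 24-hour crizotinib and 8.16 with vehicle, but at 9.32 in the resistant and 9.24 in the sensitive array. Its acute difference was -1.13, the chronic one was 0.07, and the sensitive array exceeded vehicle by 1.08. ADAMTS18 showed the same split by time: it was at 4.29 with 24-hour crizotinib and 4.91 with vehicle, and at 6.22 in the resistant and 6.56 in the sensitive array. ADAMTS6 was likewise higher at 21 days, at 7.80 in the resistant and 7.44 in the sensitive array, against 6.65 and 6.81 in the 24-hour crizotinib and vehicle arrays. ADAMTS9, another proteoglycan-cleaving member, crossed 4.96 in the resistant array alone, at 5.19 against 4.34 in the sensitive array, a difference of 0.86 that lies below 2-fold. The procollagen N-proteinases ADAMTS2, ADAMTS3 and ADAMTS14 differed by 0.21, -0.57 and 0.26 in the chronic pair and by -0.09, -0.37 and 0.04 in the acute pair. ADAMTS3 was low throughout and lowest in the resistant array, at 3.03 against 3.60 in the sensitive array, with 4.10 and 4.47 in the 24-hour crizotinib and vehicle arrays. The remaining ADAMTS genes differed by less than 0.7 in both pairs.

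Of the 21 ADAMs, 10 passed the level filter in each pair. In the chronic pair 2 were called lower and 0 higher, beside 4.08% and 3.97% of all features that passed. In the acute pair 0 were called, where 2.88% of features were higher and 2.13% lower. ADAM10 and ADAM17, the main sheddases of Notch, of cytokines and of ligands of the EGF receptor, were at 9.98 and 8.25 under 24-hour crizotinib and at 9.43 and 7.84 under vehicle, differences of 0.56 and 0.41. In the chronic pair they differed by -0.02 and -0.08, with ADAM10 at 9.53 in the resistant and 9.56 in the sensitive array. ADAM19, which has neuregulin among its substrates, was at 6.23 in the resistant array and 7.24 in the sensitive array, a difference of -1.02, with 6.55 and 6.68 in the 24-hour crizotinib and vehicle arrays. ADAM22, a catalytically inactive receptor for LGI proteins, was at 4.90 in the resistant array and 5.91 in the sensitive array, a difference of -1.01, and at 6.12 and 5.46 in the 24-hour crizotinib and vehicle arrays. Both sat on the 2-fold line, and against vehicle they differed by -0.46 and -0.56. ADAM23, also inactive as a protease, was higher with crizotinib in both pairs, by 0.70 at 24 hours and 0.42 at 21 days. Both differences lie within the spread between the arrays without drug. With the other drug-free array as control they were 0.38 and 0.74. ADAM9, a widely expressed sheddase, was at 9.97 in the resistant and 10.32 in the sensitive array, and at 10.41 and 10.35 in the 24-hour crizotinib and vehicle arrays. The resistant array was the lowest, by 0.35 from its control. ADAM12, ADAM15 and ADAM8 differed by 0.01, 0.39 and -0.61 in the chronic pair. The other ADAM genes were below 4.96 in every array except ADAM33, at 5.51 in the resistant and 5.00 in the sensitive array. ADAM28 had the highest chronic difference of the family, 0.92, at 4.87 in the resistant and 3.95 in the sensitive array, both below that level. The low ones also include the testis genes ADAM2, ADAM18, ADAM20, ADAM21, ADAM29 and ADAM30 and the pseudogenes ADAM5 and ADAM6.

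Of the 6 membrane-type MMPs, which act at the cell surface, 3 passed the level filter in each pair and 0 were called. The shares over all features that passed were 2.88% higher and 2.13% lower after 24 hours, and 3.97% and 4.08% in the chronic pair. MMP14, the activator of proMMP2, was at 10.17 in the resistant and 10.04 in the sensitive array and at 10.08 and 9.90 in the 24-hour crizotinib and vehicle arrays. MMP16 was at 6.84 in the resistant and 7.59 in the sensitive array, and at 7.65 and 7.29 in the 24-hour crizotinib and vehicle arrays, with a chronic difference of -0.75. MMP17 differed by 0.56 in the chronic pair, and MMP15, MMP24 and MMP25 were below 4.96 throughout. MMP11 was at 5.30 in the resistant and 5.14 in the sensitive array, and MMP21, MMP26 and MMP28 lay below 4.96. In all, 28 of the 65 members stayed within 0.5 over the 4 arrays, as did 12049 of all 23786 features. None of the acute, chronic or drug-free comparisons called 52 of the members. These include the 31 that lay below 4.96 on every array and so could not be called.

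**Figure D5:**
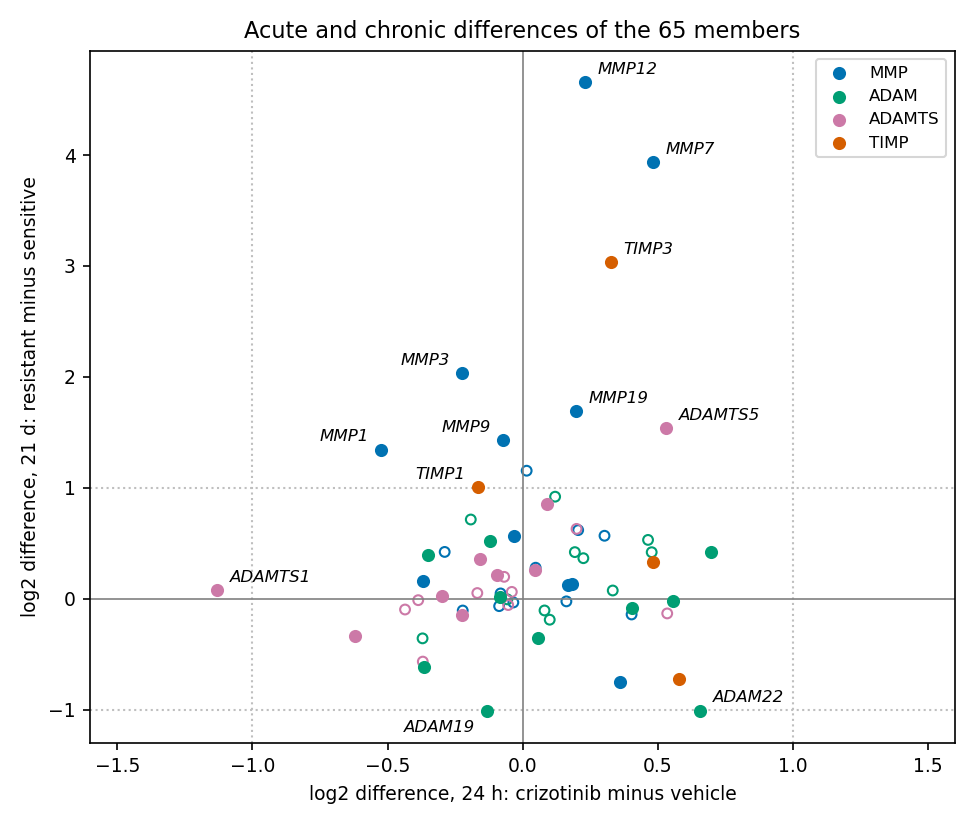
Acute difference (horizontal axis, 24-hour crizotinib minus vehicle) against chronic difference (vertical axis, resistant minus sensitive) on the log2 scale for the 65 members, coloured by family; open symbols lie below 4.96 on all arrays and dotted lines mark 2-fold. Called members are named, and ADAMTS1 alone lies outside the dotted lines of the acute axis.

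A model with the vehicle and sensitive arrays as 1 control group was fitted in limma over 11891 features whose mean over the arrays reached 4.96, 30 of them members. The level of MMP3 in the resistant array was 2.23 above the mean of the controls (SE 0.27, adjusted p = 0.0350, limma), and that of MMP19 was 1.68 above it (SE 0.22, adjusted p = 0.0443, limma). They were 2 of 30 members tested, where 1.49% of all features were called. Neither passed in a fit of 1 joint crizotinib effect that keeps each pair as a block, with an adjusted p of 0.501 for MMP3 and 0.353 for MMP19 (limma). ADAMTS5 was at 1.94 (SE 0.38, adjusted p = 0.0978, limma) and TIMP1 at 1.15 (SE 0.25, adjusted p = 0.119, limma). For MMP1 and TIMP3 the control arrays disagree, and the adjusted p was 0.387 and 0.564 (limma). In the acute contrast limma called 0 of 30 members and 0.00841% of features. Below an unadjusted p of 0.05 were 2 of the 30, TIMP4 at 0.82 and ADAMTS1 at -1.67, a smaller share than the 16.3% of all features. MMP12 and MMP7 have means below 4.96 and so were not tested there. With all 23786 features tested, 0 passed in the chronic contrast in limma, where the adjusted p of MMP12 and MMP7 was 0.0559 each. Below an unadjusted p of 0.05 in that fit were 15 of the 65 members and 12.4% of all features. The fit has 1 residual degree of freedom, and its p-values rest on the spread between a pair of drug-free cultures that also differ in time, with no replicate of the resistant array.

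Genes that activate, guide or restrain these proteases were taken from lists of known partners. Only genes that passed the level filter could be called. In each pair these were 7 of the activators, 5 of the other inhibitors, 9 of the ADAM partners and 6 of the shed ligands and receptors. Over all features that passed, 2.88% were called higher and 2.13% lower after 24 hours, and 3.97% and 4.08% in the chronic pair. Of 13 measured activators of MMPs, 2 were called lower after 24 hours and 0 in the chronic pair. Urokinase (PLAU), which generates plasmin, was at 7.94 with 24-hour crizotinib and 10.26 with vehicle, and its receptor PLAUR at 8.32 and 9.56. In the resistant and sensitive arrays PLAU was at 9.85 and 9.94 and PLAUR at 9.97 and 9.93. Other protease inhibitors had 0 of 11 called in either crizotinib comparison: the chronic differences ran from -0.11 for TFPI2 to 0.96 for cystatin C (CST3), with the membrane-anchored MMP inhibitor RECK at 0.42. Partners of the ADAMs, among them the iRhom genes RHBDF1 and RHBDF2 that bring ADAM17 to the surface and the tetraspanins that escort ADAM10, also had 0 of 11 called. Of 13 measured ligands and receptors shed by ADAMs, 1 was called lower after 24 hours and 0 in the chronic pair. That gene was HBEGF, a ligand of the EGF receptor, at 5.83 with 24-hour crizotinib and 7.32 with vehicle.

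Of 16 measured transcription factors and cytokines known to induce MMP genes, 2 were called lower and 0 higher after 24 hours, and 3 higher and 0 lower in the chronic pair. The level filter was passed by 13 of the 16 in the acute and 14 in the chronic pair. Over all features that passed, 2.13% were called lower after 24 hours and 3.97% higher in the chronic pair. The medians over the 16 were -0.19 and 0.13, beside -0.01 and 0.01 over all features, and most of the list was called in neither pair. The 2 lower after 24 hours were AP-1 genes. FOSL1 was at 8.42 with 24-hour crizotinib and 10.29 with vehicle, and JUN at 8.72 and 9.78. The 3 called higher in the chronic pair were cytokines: IL1A at 7.33 in the resistant and 5.71 in the sensitive array, IL1B at 11.83 and 9.61, and IL6 at 9.79 and 6.48. IL1A and IL1B, like MMP1, were also called higher in the sensitive array than in the vehicle array, by 1.26 and 2.24. FOSL1 was at 10.04 in the resistant and 10.89 in the sensitive array and JUN at 10.50 and 9.80. Whether any of these bears on the MMP levels was not tested.

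Since MMP12 is known from macrophages, markers of other cells were set beside it. Of 7 measured macrophage and leukocyte markers, only CSF1R passed the level filter in any comparison, and it was not called. The others did not pass and could not be called. The mean level of the 7 was 3.38 in the resistant and 3.31 in the sensitive array, and 3.21 and 3.29 in the 24-hour crizotinib and vehicle arrays. Their chronic differences ran from -0.46 for CSF1R to 0.64 for ITGAM, 3 above 0 and 4 below. ITGAM was at 4.55 in the resistant and 3.92 in the sensitive array, CD163 at 3.11 and 2.68, AIF1 at 3.15 and 3.04, PTPRC at 1.98 and 2.09, and CD14 at 2.86 and 2.89. CSF1R was the 1 marker above 4.96, at 5.18 in the resistant and 5.64 in the sensitive array. Of 6 fibroblast and pericyte markers, 4 passed the level filter in the chronic pair. Called higher in the resistant array was 1, beside 3.97% of all features that passed. It was PDGFRA, at 5.63 against 3.97 in the sensitive array, with list means of 5.28 and 4.94. Chronic differences in this list ran from -0.45 for PI16 to 1.66 for PDGFRA, 4 above 0 and 2 below. The part of such cells in the differences was not tested. Of 6 endothelial markers, 0 passed the level filter in the acute pair and 1 in the chronic pair. Of 8 epithelial markers, 1 passed in the acute pair and 0 in the chronic pair. None was called in either pair, but markers that did not pass could not be called.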

How the data were processed

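Total RNA from 4 U87 cultures was biotin-labelled and hybridised to Affymetrix whole-transcript arrays. The deposited values are log2 expression per gene; RMA (background correction, normalization between arrays and summary over probes), affy 1.36.1 and R 2.15.1 are named in the submitters' processing notes. Detection calls were not analysed here, so no gene is called absent, and RMA compresses low values. Groups came from the labels. Symbols came from GEO's platform annotation, which gave 22458 of 23786 features 1 symbol and none several; 1328 were unnamed here.

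Differences were taken within each pair and counted at 2-fold where one array reached 4.96. Genes were named if called in a comparison, if in the 11q22 cluster, if a TIMP, if among the 6 highest mean levels or if past 0.05 in limma 3.58.1 (R 4.3.3; lmFit, eBayes, Benjamini-Hochberg over all features tested). Others are summarised by subfamily, and small subfamilies by name. ADAMTS6, ADAMTS9, ADAM8, ADAM12, ADAM15, ADAM23, ADAM28, RECK and the flanking genes were added after values were seen. The members and all lists were chosen with earlier results of these data known. The fits were tested on simulated data. Alternatives changed the filter, the fold, the centring, the control array and the model. Tables were handled in pandas 2.3.3 under Python 3.11.15.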

Additional observations from a re-analysis of the deposited data

Results flagged for a closer look

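For 6 members a difference called in one crizotinib comparison had the opposite sign in the other, and the gap between the comparisons was not tested, since each rests on a single pair of arrays. The chronic difference minus the acute difference was 2.26 for MMP3, 1.87 for MMP1, 1.5 for MMP9, 1.20 for ADAMTS1, 1.17 for TIMP1 and -1.67 for ADAM22. The acute differences of MMP9, TIMP1, MMP3, MMP1 and ADAM22, at -0.07, -0.17, -0.22, -0.52 and 0.66, lie within the spread between the arrays without drug (-0.80 to 0.85). So does the chronic difference of ADAMTS1, at 0.07. Against the other drug-free array the acute difference of ADAM22 was 0.21. Dose, time and culture differ between the pairs together and cannot be told apart.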

How the results depend on the processing

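The 11 members called in the chronic pair became 9 to 15 under the other filters, fold, centring and control arrays; with each array centred on its median TIMP1 fell short, leaving 10. The acute count of 1 became 3 at 1.5-fold, 5 against the sensitive array and 4 against the mean of both drug-free arrays. The drug-free count of 4 became 7 at 1.5-fold. The limma count of 2 in the chronic contrast became 0 with all features tested and 0 with crizotinib fitted over both pairs, where 15 of 65 and 3 of 30 members were below an unadjusted p of 0.05, against 12.4% and 14.6% of all features; centring gave 3 and an intensity trend 2. The acute limma count was 0 in the fits that have an acute contrast; the fit over both pairs has 1 joint contrast and no acute one. Of 48 differences, an acute and a chronic one for each of 24 named members, 20 moved by more than 0.43 when the other drug-free array was the control. That limit is the SD between the drug-free arrays. This change shifts both differences of a gene by the same size, so they move in pairs. Of the called ones 0 changed sign. Centring could move none by that much, as array medians lay between 4.92 and 4.98. No array can be left out of a pair, as each condition has 1; without one drug-free array the limma fit keeps no residual degree of freedom.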

Other observations

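Of 14 measured matrix genes that these proteases act on, 8 passed the level filter in the chronic pair. Among them 2 were called higher and 2 lower, where 3.97% and 4.08% of all features passing the filter were called. Most of the list was called in neither direction, but genes that did not pass could not be called. Decorin (DCN), a collagen-binding proteoglycan, was at 8.29 in the resistant and 3.27 in the sensitive array, and lumican (LUM), its relative, at 8.67 and 6.13. Versican (VCAN), a substrate of ADAMTS1 and ADAMTS5, was at 8.69 in the resistant and 9.71 in the sensitive array, and the collagen chain COL1A1 at 8.39 and 9.54. After 24 hours 7 of the 14 passed, and LUM was the 1 gene called, at 6.49 with crizotinib and 5.19 with vehicle. In that pair 2.88% of all features that passed were called higher and 2.13% lower. The brain proteoglycans BCAN, NCAN and ACAN were below 4.96 on all arrays. The median chronic difference over the 14 was 0.09.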
